A study of Mus musculus with 6 samples.

Results

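To examine the broadest sites of CTCF binding in mouse embryonic stem cells, the genomic regions of 1000 bp or more were taken from a CTCF chromatin immunoprecipitation sequencing (ChIP-seq) data set. A region is the stretch of genome covered by touching peaks of any of 4 libraries, and 1239 of the 57662 regions in all (2.15%) lay on chromosomes 1 to 19 or X and reached this width. They are called wide regions here, and the 56405 shorter regions on the same chromosomes are called narrower regions. Both genotypes came from mESCs in which tagged endogenous CTCF was degraded with auxin and replaced by an introduced CTCF. WT_CTCF cells carried the wild-type protein, and MUT_CTCF cells carried a protein with a threonine changed to alanine, so that the sugar O-GlcNAc could not be attached there. Each genotype had 2 CTCF ChIP libraries and 1 input library, and the input libraries were not analysed here. Cells were kept in serum medium with LIF, and Drosophila chromatin was added to each sample as an external reference for scaling. The cell lines were picked clones chosen for CTCF levels near the endogenous one, so a difference between genotypes cannot be told apart from a difference between clones. The files hold peaks and no expression, so the labelled cell type could not be checked with marker genes.

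CTCF is a DNA-binding protein with a row of zinc fingers that read a short, non-palindromic motif. The direction of the motif matters, because the cohesin ring, which extrudes chromatin loops, is held where it meets CTCF sites pointing towards the loop. In rodents the motif was spread by B2 elements, a family of short retrotransposons, so many mouse CTCF sites lie in repeated sequence. A ChIP-seq peak is the stretch around a site in which enriched fragments pile up, and its summit is the position of the highest pile. The peak caller recorded 1 summit per peak, so several sites under 1 peak leave 1 summit in that list.

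The following sequences show what lay under wide regions, because many held more than 1 copy of the CTCF core motif. All are from the reference of build mm9, read 5′ to 3′, with motif matches in capitals and surrounding bases in lower case. The motif has 13 positions, was searched on both strands with at most 1 mismatch, and overlapping matches were reduced to the one with fewer mismatches. In the first 4 windows, given on the plus strand, a match in reverse orientation appears as its reverse complement. They come from the wide region with the highest mean score (Fam129b), the one with the highest mean signal (Gdf15), and 2 regions whose scores were nearly equal in both genotypes (Ksr2 and Amz1). The Amz1 window is not at the top summits of its region, which lay 10 to 18 bp from a further match that is not printed. Only a WT_CTCF replicate 1 peak with a score of 143 had its summit in the window.
Fam129b, chr2:32768096-32768184: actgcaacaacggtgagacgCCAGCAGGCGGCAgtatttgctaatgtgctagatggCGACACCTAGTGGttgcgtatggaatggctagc
Gdf15, chr8:73153774-73153871: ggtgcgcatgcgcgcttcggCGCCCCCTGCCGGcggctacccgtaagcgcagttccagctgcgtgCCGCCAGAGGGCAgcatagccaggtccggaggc
Ksr2, chr5:117955329-117955438: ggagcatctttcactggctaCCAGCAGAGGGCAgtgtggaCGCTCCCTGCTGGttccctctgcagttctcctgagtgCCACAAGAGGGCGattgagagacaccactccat
Amz1, chr5:141225107-141225203: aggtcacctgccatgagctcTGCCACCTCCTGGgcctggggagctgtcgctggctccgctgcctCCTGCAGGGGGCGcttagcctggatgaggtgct

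The Fam129b matches pointed towards each other, the Gdf15 and Amz1 matches pointed away from each other, and the Ksr2 window of 110 bases held 3 matches. The next windows, given on the strand of the motif, are compared with a sequence that recurs across the genome. The first is the consensus of the 8996 windows, over all regions, around the commonest exact string matched. The others are from the region with the lowest score in MUT_CTCF relative to WT_CTCF (Psmb3), from the widest region (H3f3b), and from the second widest region (near Ptma), where the last window had the core of the consensus but other flanks and the one before it had neither.
Consensus: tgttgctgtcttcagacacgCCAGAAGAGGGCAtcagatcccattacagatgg
Psmb3 first match, chr11:97571599-97571651: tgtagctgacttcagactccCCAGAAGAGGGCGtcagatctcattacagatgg
Psmb3 second match, chr11:97571993-97572045: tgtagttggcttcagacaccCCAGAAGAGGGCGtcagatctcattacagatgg
H3f3b, chr11:115882146-115882198: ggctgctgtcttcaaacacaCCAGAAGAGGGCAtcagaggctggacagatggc
Near Ptma, first match, chr1:88429103-88429155: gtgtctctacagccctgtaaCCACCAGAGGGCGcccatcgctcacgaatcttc
Near Ptma, last match, chr1:88430469-88430521: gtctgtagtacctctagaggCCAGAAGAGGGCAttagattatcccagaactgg

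Both Psmb3 windows shared 35 of the 40 flanking bases with the consensus, and were counted as like it under the limit of 28 used here. The H3f3b window shared 23 and the windows near Ptma shared 7 and 17, below this limit. The letters of the consensus are those of a stretch of the B2 element, as background knowledge. No repeat annotation was used here, so windows are described only by their likeness to this consensus.

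Wide regions had a median width of 1206 bp and reached 3985 bp, and together they covered 1.58 Mb. The regions were chosen by their width, a measured value of the peak lists, so their width and the length covered in each library are given as a description. Most were wide through a single peak: 1153 held at least 1 peak of 1000 bp or more, and 86 became wide only where shorter peaks of different libraries joined. The wide peaks were mostly those of WT_CTCF. Merging the 2 WT_CTCF lists alone gave 1223 regions of at least 1000 bp, and merging the 2 MUT_CTCF lists alone gave 233. The authors' mean scaled count over the 4 libraries had a median of 477.75 in wide regions, against 91.75 in narrower ones. Per kb of region these medians were 393 and 219. Regions of 900 to 999 bp had 428 per kb, so a higher signal per length was not particular to wide regions. Wide regions made up 5.83% of the summed region width and 7.85% of the summed mean count. The threshold did not fall at a break in the data. The 328 members of 1000 to 1099 bp had a median mean count of 406.875 and 23.2% had more than 1 distinct summit, while the 591 regions of 900 to 999 bp just below had a median of 402 and 13.4% with more than 1.

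Nearly as many wide regions had several summits as had 1. Summits of the 4 lists were pooled and those 100 bp or less apart were taken as 1 distinct summit. By this count, 630 wide regions had 1 distinct summit, 579 had 2, 26 had 3 and 4 had 4. Several summits were thus found in 609 of 1239 wide regions (49.2%), against 1.58% of narrower regions. The share rose with width, from 32.9% of the 726 regions of 1000 to 1249 bp to 63.6% of the 319 regions of 1250 to 1499 bp and 86.1% of the 194 regions of 1500 bp or more. In wide regions with exactly 2 distinct summits, these lay a median of 711 bp apart (25th to 75th percentile 616 to 814.5 bp). Of all 1882 distinct summits, 1340 (71.2%) were recorded in both genotypes, 252 (13.4%) in WT_CTCF only and 290 (15.4%) in MUT_CTCF only. Each genotype thus recorded summits that the other left out, although the MUT_CTCF lists were shorter. A summit counted for a genotype when at least 1 of its 2 libraries had it, so these counts also hold differences between replicates.

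**Figure D1:**
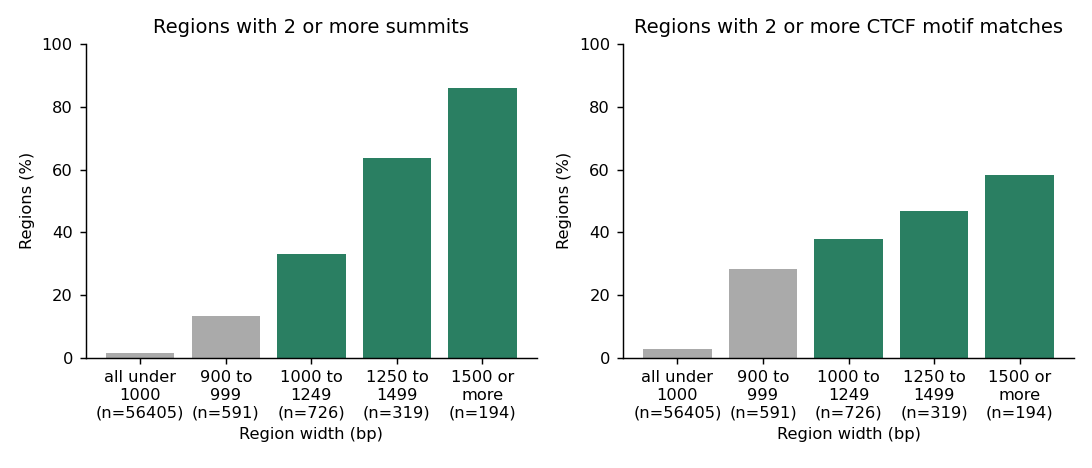
Percent of regions with 2 or more distinct summits (left) and with 2 or more CTCF motif matches (right), by region width in bp, with the number of regions under each bar; grey bars are narrower regions and green bars wide ones. Both shares are higher in each wider class, and they reach 86.1% and 58.2% at 1500 bp or more.

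A CTCF motif match was present in 1066 of 1239 wide regions (86.0%), against 60.0% of narrower regions. In intervals of equal width 5000 bp to either side of the wide regions, 14.7% of 2478 held a match. A single match was found in 529 wide regions, 2 in 460, 3 in 67, 4 in 9 and 5 in 1. The share with at least 2 was 43.3%, against 2.71% of narrower regions and 1.53% of the flanking intervals. A longer stretch holds more matches, and per kb there were 1.07 matches in wide regions and 1.39 in narrower ones. More matches per region were therefore not more matches per length. In wide regions with a match and a peak, the summit of the highest peak lay a median of 13, 13, 14 and 14 bp from the nearest match in WT_CTCF replicates 1 and 2 and MUT_CTCF replicates 1 and 2. It lay within 50 bp of a match in 80.6%, 81.0%, 80.2% and 80.0% of them, and farther away in the rest.

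Summits and motif matches did not map one to one. Among the 609 wide regions with several distinct summits, every summit lay within 50 bp of a match in 246 (40.4%), some did in 276 and none did in 87. Of the 630 with a single summit, 234 (37.1%) nevertheless held at least 2 matches. Where exactly 2 matches were present, they were a median of 626.5 bp apart (range 27 to 1654 bp). They lay on the same strand in 249 of these 460 regions (54.1%), pointed away from each other in 126 (27.4%) and towards each other in 85 (18.5%). The median distance hardly depended on this arrangement, at 625, 629 and 608 bp.

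Wide regions without a match were more often at gene starts. A transcription start was touched by 33 of these 173 (19.1%), against 85 of the 1066 with a match (7.97%). A smaller share of them was called in all 4 libraries, 145 of 173 (83.8%) against 1031 of 1066 (96.7%). Their median mean count was 390.25, against 493.5 with a match.

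The recurring sequence was common in wide regions but took no larger share of their matches. Of the 1691 matches in wide regions, 286 (16.9%) shared at least 28 of 40 flanking bases with the consensus, as did 18.1% of the 35476 matches in narrower regions. At least 1 such window lay in 247 wide regions (19.9%) and in 11.1% of narrower ones, and 34 wide regions held several. Wide regions with such a window had a median mean count of 363.75, against 543.5 in the other 819 with a match. They were called in all 4 libraries in 87.9% of cases, against 99.4%. In narrower regions the same shares were 20.9% and 68.8%. Of the 63 wide regions not called in all 4 libraries, 35 had a match and 30 of these 35 had a window like the consensus. Their score in MUT_CTCF relative to WT_CTCF, where called in all 4, had a median log2 ratio of -1.27, against -1.17 in the others with a match.

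**Figure D2:**
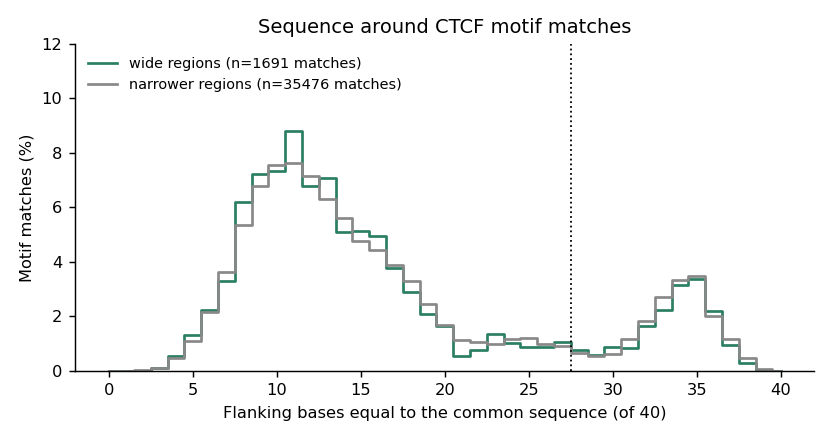
Percent of CTCF motif matches (y) by the number of their 40 flanking bases equal to the consensus (x), for wide regions (green, 1691 matches) and narrower regions (grey, 35476 matches); the dotted line marks the limit of 28 bases. Both curves have a main hump at low likeness and a smaller one at high likeness, with 16.9% and 18.1% of matches to the right of the line.

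Wide regions were called in nearly every library. Of the 1239, a peak was present in 1238 and 1239 in WT_CTCF replicates 1 and 2, and in 1191 and 1187 in MUT_CTCF replicates 1 and 2. The means were 1238.5 ± 0.707 (SD, n = 2) and 1189 ± 2.83 (SD, n = 2). Since wide regions were mostly chosen through WT_CTCF peaks, nearly complete presence in WT_CTCF was set by the choice, and these values carry no test. By region, 36 wide regions (2.91%) had a peak in each WT_CTCF library but were called in no MUT_CTCF library, where 19.5% of all regions had this pattern. No wide region had the opposite pattern, which 0.0278% of all regions had. A further 15 lacked a peak only in MUT_CTCF replicate 2, 11 only in MUT_CTCF replicate 1, and 1 was called in WT_CTCF replicate 2 alone. Wide regions thus belonged mostly to the shared part of the lists, with 94.9% called in all 4 libraries. The share was 92.7% in regions of 900 to 999 bp and 51.7% in all narrower regions.

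The 36 wide regions called only with WT_CTCF were weak. Their top scores had medians of 96 and 114 in the WT_CTCF libraries, and their median mean count was 118.75. A CTCF motif match was present in 15 of the 36, a window like the consensus in 12, and 15 lay on chromosome 11. The region in Hnrnpa2b1, which encodes an RNA-binding protein that packages pre-mRNA, had top scores of 57 and 79, and the one in the gene a (agouti), which controls coat colour, had 47 and 79. Both had 4 distinct summits and no match. Others, picked after their values were seen, lay in Hnrnpa3, an RNA-binding protein gene (163 and 114), in Eif4a2, an RNA helicase gene of translation initiation (176 and 102), and in Malat1, a nuclear long non-coding RNA gene (57 and 38).

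MUT_CTCF peaks were more broken up within wide regions. Only 218 of the 1239 held a MUT_CTCF peak of 1000 bp or more, so most regions were chosen for a long WT_CTCF peak. Numbers of peaks per region are therefore bound to the choice and are given as a description, with no test. Among wide regions with a peak, 14.7% and 7.83% held at least 2 separate peaks in WT_CTCF replicates 1 and 2, and 26.0% and 25.7% in MUT_CTCF replicates 1 and 2. The means were 11.3% ± 4.86 (SD, n = 2) and 25.9% ± 0.236 (SD, n = 2), a difference of 14.6 percentage points. Peaks per wide region showed the same order, with 1.15 and 1.08 in WT_CTCF and 1.26 and 1.26 in MUT_CTCF. The size of the difference depended on which lists built the regions, because a region keeps the extent of its widest peak. Rebuilt without WT_CTCF replicate 1, the regions gave 1.25% in the remaining WT_CTCF library and a difference of 25.8 points, and without WT_CTCF replicate 2 they gave 1.76% and 26.3 points. Leaving out a MUT_CTCF library gave 14.7 and 14.9 points. Other limits moved it as well, to 5.57 points at a width of 800 bp, 36.9 at 1500 bp and 6.01 with peaks scoring 250 or more. Outside chromosome 11, the 4 shares were 15.3%, 7.73%, 27.1% and 27.0%.

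**Figure D3:**
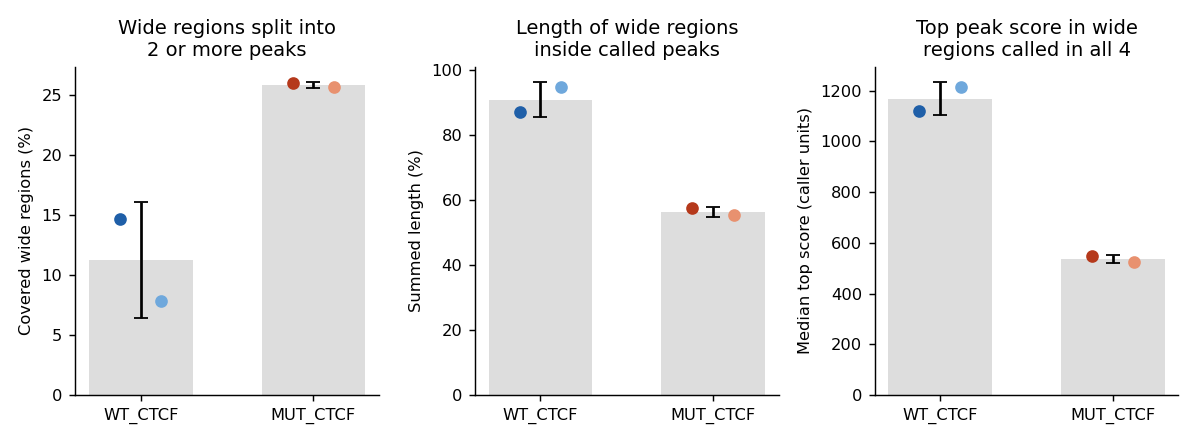
Values per library (points) with the group mean (bar) and SD (error bar, n = 2) for WT_CTCF and MUT_CTCF: percent of covered wide regions with 2 or more peaks, percent of summed wide-region length inside peaks, and median top score in caller units. The MUT_CTCF points lie above both WT_CTCF points in the first panel and below them in the others.

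By region, the same description holds. Of the 1176 wide regions called in all 4 libraries, 690 held exactly 1 peak in every library. In 133 (11.3%), each WT_CTCF library had 1 peak where each MUT_CTCF library had at least 2, against 0.472% of all regions called in all 4 libraries. The reverse was found in 4 wide regions (0.340%), against 0.0132% of all. Narrower regions offer little room for a split, since the shortest peak was 150 bp and the smallest gap between peaks of a list was 151 bp, so the shares over all regions are not a like-for-like measure. The imbalance of 133 and 4 is likewise bound to the choice of regions through long WT_CTCF peaks and supports nothing by itself.

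In the 133 split regions, the pair of highest MUT_CTCF peaks had summits a median of 769 bp apart in both replicates, with gaps of 311 and 310 bp between them. The higher peak had a score 1.99 and 2.13 times that of the lower one (medians). A motif match lay within 50 bp of both summits in 65 and 64 regions (48.9% and 48.1%). The single WT_CTCF summits mostly sat on the stronger site. Against MUT_CTCF replicates 1 and 2, both lay within 100 bp of the summit of the higher peak in 96 and 95 regions and of the lower peak in 18 and 17. They stood 1 at each in 17 and 18, and in the few others at least 1 WT_CTCF summit was within 100 bp of neither. The split regions were wider than the 690 with 1 peak in every library, with a median of 1395 against 1139.5 bp. Their median mean count was 546, against 516.125, over this greater width. Their median top scores were lower in every library. These were 1103 and 1180 against 1236 and 1333 in WT_CTCF replicates 1 and 2. In MUT_CTCF replicates 1 and 2 they were 511 and 458 against 610 and 594.

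Peaks in MUT_CTCF covered less of each wide region. The summed length inside peaks was 87.3% and 94.8% in WT_CTCF replicates 1 and 2, and 57.5% and 55.4% in MUT_CTCF replicates 1 and 2. The median peak width there was 1013.5 and 1119 bp in WT_CTCF and 541 and 520.5 bp in MUT_CTCF. This was so without any split too. In the 690 regions with 1 peak in every library, the median peak covered 1043 and 1104.5 bp in WT_CTCF and 724.5 and 706.5 bp in MUT_CTCF. Since regions keep the extent of their widest peak and WT_CTCF peaks were wider, these lengths describe the selection and carry no test.

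**Figure D4:**
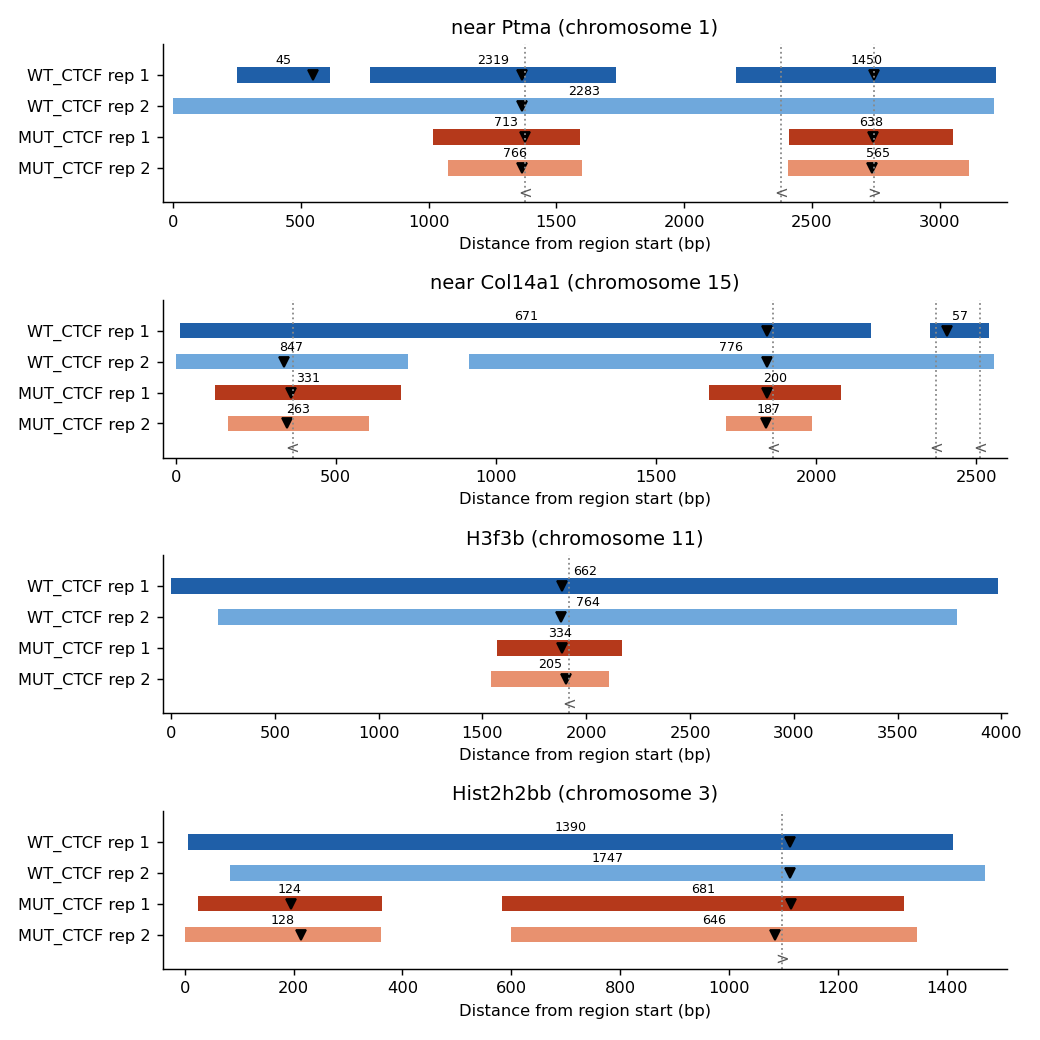
Called peaks (bars, with the score above each) and summits (triangles) of the 4 libraries in 4 wide regions, drawn to scale in bp from the region start; dotted lines mark CTCF motif matches and the arrowhead under each gives its strand. In each map the MUT_CTCF bars cover less than the WT_CTCF bars, as separate peaks in 3 regions and as a shorter single peak at H3f3b.

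Peak scores were lower in MUT_CTCF in wide regions, by about as much as in narrower ones. The score is the caller's own value on spike-in scaled tracks, its definition was not stated, and the read depth is unknown. A lower score is therefore not read here as less bound CTCF. In the 1176 wide regions called in all 4 libraries, the median top score was 1122 and 1214.5 in WT_CTCF replicates 1 and 2, and 548 and 524.5 in MUT_CTCF replicates 1 and 2. The group means were 1168 ± 65.4 and 536 ± 16.6 (SD, n = 2 each), which do not overlap. An exact permutation test (two-sided) gave p = 0.333, the smallest p that 2 libraries per genotype allow. No comparison of the libraries here could thus pass a threshold of 0.05. Wide regions were also mostly chosen through long WT_CTCF peaks, so this test cannot separate genotype from the choice of regions. Both MUT_CTCF scores were below both WT_CTCF scores in 1162 of 1176 wide regions (98.8%), against 96.2% of all regions called in all 4 libraries. None had both MUT_CTCF scores above both WT_CTCF scores, against 0.218% of all. The median log2 ratio of MUT_CTCF to WT_CTCF mean score was -1.18 in wide regions (25th to 75th percentile -1.44 to -0.91) and -1.18 in narrower ones (-1.52 to -0.88).

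Within each library, wide regions scored about 1 log2 unit above narrower ones, over the regions called in all 4 libraries. This kept 94.9% of wide regions but 51.7% of narrower ones. The difference of the log2 median scores was 1.02 in both WT_CTCF libraries, and 1.09 and 1.13 in MUT_CTCF replicates 1 and 2. The step was thus 0.089 log2 units larger in MUT_CTCF (exact permutation p = 0.333). Since wide regions were mostly chosen through WT_CTCF peaks, no conclusion is drawn from this p. The larger step in MUT_CTCF was not kept under a score limit. With peaks scoring 250 or more, the median over the pooled lists, the step was smaller in every library. This limit cuts on the score itself. In narrower regions the median top scores were 553 and 598 in WT_CTCF and 258 and 239 in MUT_CTCF. The limit thus cut the genotypes unequally, and no conclusion is drawn from the change it made. The step was then 0.464 and 0.432 in WT_CTCF replicates 1 and 2 and 0.438 and 0.449 in MUT_CTCF replicates 1 and 2. The difference between genotypes was then -0.0045 (exact permutation p = 1). Wide and narrower regions are thus not shown to differ in how the score changed between genotypes.

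Top summits moved little. Between replicates, the summits of the highest peaks in the same wide region were a median of 7 bp apart in WT_CTCF and 8 bp in MUT_CTCF. Across genotypes the 4 pairs of libraries gave 12, 11, 12 and 11 bp. The mean shift across genotypes was 4 bp larger than that between replicates, and 4 libraries allow no permutation p below 0.333. All 4 top summits lay within 100 bp of each other in 983 of 1176 wide regions. Larger jumps were more frequent than in narrower regions. A distance above 100 bp was found in 6.46% and 6.72% of wide regions between replicates and in 10.4% to 10.7% across genotypes, where narrower regions gave 0.285% to 0.604% over all pairs. In 55 wide regions the replicates agreed to within 100 bp while the genotypes differed by more. The same count was not made over all regions or for other pairings of the libraries, so it is not read as a genotype difference. Replicates alone differed by more than 100 bp in 76 wide regions in WT_CTCF and 79 in MUT_CTCF. A narrower region leaves less length for such a jump.

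Wide regions lay at gene starts more often than narrower ones. A promoter, taken as the 3000 bp before a transcription start, was touched by 282 wide regions (22.8%), against 15.5% of narrower ones. A start itself lay in 118 (9.52%), against 3.94%. They overlapped an exon in 23.6% of cases, against 13.3%, lay within an intron in 24.0%, against 39.1%, and touched neither gene nor promoter in 44.5%, against 41.8%. A longer region touches more features by its length alone, and the part of width in these shares was not tested. Regions of 900 to 999 bp had similar shares, with 22.8% at a promoter and 8.46% at a start. CpG-rich regions were no commoner among wide ones, with 2.26% against 3.09%. The cutoff was a G+C of at least 50% and an observed to expected CpG ratio of at least 0.6, over the whole region. The medians were higher in wide regions, with a G+C of 46.9% against 45.6% and a ratio of 0.276 against 0.217. The sequence was unique for most wide regions: the median 31-base string occurred once in the genome in 1232 of 1239. Multiply aligned reads had been removed before peaks were called, so few peaks in repeated strings could arise. Narrower regions were not searched in this way, so this is not read as a trait of wide regions.

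Of the 118 wide regions over a transcription start, 72.0% held a motif match, against 87.5% of the other 1121. Their share with several distinct summits was the same, 49.2% in both. Of those called in all 4 libraries, 11 of 114 (9.65%) were split in both MUT_CTCF libraries, against 122 of 1062 (11.5%). Their median log2 score ratio was -1.26, against -1.17. Starts of several genes lay in 9 of them.

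Wide regions also had close neighbours. The nearest other region was a median of 3591 bp away, against 7091 bp for narrower regions. Another region lay within 5000 bp in 59.1% of cases, against 41.2%. Regions of 900 to 999 bp were much like wide ones in this, with a median of 3893 bp and 57.9%.

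Gene groups in which CTCF sites are well studied held few wide regions, apart from the protocadherin clusters. These clusters encode neuronal adhesion proteins whose alternative promoters carry CTCF sites, and 10 of the 71 regions there (14.1%) were wide. Imprinted genes, expressed from 1 parental copy, had 1 of 47, at Peg3, a zinc finger gene expressed from the paternal copy. Pluripotency factor genes had 1 of 48, in Esrrb, a nuclear receptor of the stem cell network. Histone genes had 1 of 36, at Hist2h2bb, which encodes a histone H2B. None of the 28 regions at cohesin and CTCF genes, the 19 at Hox genes or the 32 at X-linked loci rich in CTCF was wide. Over all regions on these chromosomes 2.15% were wide, a rate at which each of these lists would hold about 1 wide region or fewer, protocadherins aside.

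The Peg3 region of 1239 bp had top scores of 3216 and 2727 in WT_CTCF replicates 1 and 2 and 1269 and 1125 in MUT_CTCF replicates 1 and 2. The Esrrb region of 1232 bp had 809 and 826 against 444 and 308. Both had 1 peak in every library. The Hist2h2bb region of 1469 bp was split in MUT_CTCF only. Its single WT_CTCF peaks scored 1390 and 1747, and its MUT_CTCF peaks scored 124 and 681 in replicate 1 and 128 and 646 in replicate 2. The 1 motif match lay at the stronger MUT_CTCF peak.

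Chromosome 11 held the most wide regions. It had 217 of the 1239 (17.5%) but 9.10% of all regions, so that 4.14% of its regions were wide, or 1.78 per Mb. On the other autosomes the share ran from 1.18% on chromosome 14 to 2.56% on chromosome 8, and on X it was 0.512%, with 7 wide regions. Chromosome 11 was also set apart in regions that width did not choose. The median top score of its narrower regions was 740 and 811 in WT_CTCF replicates 1 and 2 and 350 and 337 in MUT_CTCF replicates 1 and 2. On the other chromosomes these medians ran from 302 to 688, from 332 to 741, from 129 to 320.5 and from 129 to 305. Scores of narrower regions on chromosome 11 were thus above those of all other chromosomes in each library, and on X they were the lowest. In wide regions chromosome 11 was not the highest. Its medians there were 1455.5 and 1567 in WT_CTCF replicates 1 and 2 and 701.5 and 688 in MUT_CTCF replicates 1 and 2. On chromosome 1 they were 1569, 1731, 734 and 720. The part of the higher narrower-region scores in the number of wide regions on chromosome 11 was not tested.

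**Figure D5:**
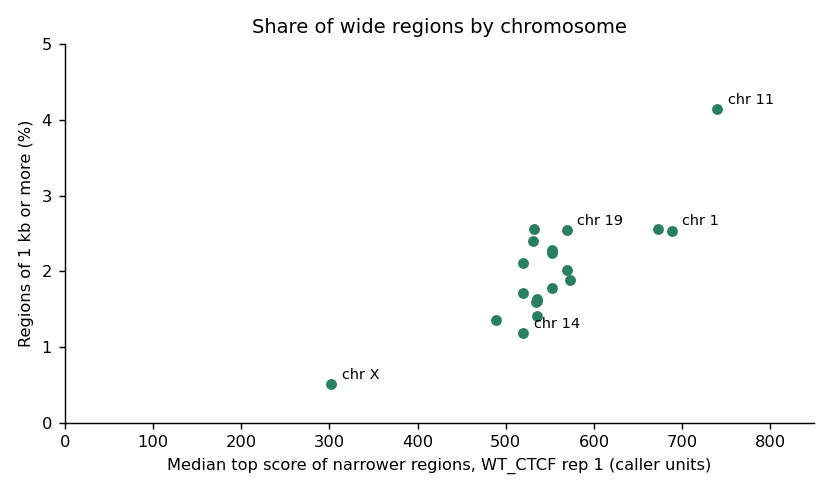
Percent of regions that are 1 kb or wider (y) against the median top score of narrower regions in WT_CTCF replicate 1, in caller units (x), 1 point per chromosome. Chromosome 11 lies at the upper right with 4.14% and 740, and X at the lower left with 0.512% and 302.

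The widest region, of 3985 bp, lay over an exon of H3f3b on chromosome 11, a gene for the replacement histone H3.3. Its single peak was 3985 and 3560 bp wide in WT_CTCF replicates 1 and 2 and 604 and 565 bp in MUT_CTCF replicates 1 and 2. The scores were 662, 764, 334 and 205. All 4 summits fell within 36 bp of the 1 motif match printed above, so the extra WT_CTCF width lay on both sides of a single site. The second widest, of 3222 bp, lay 4442 bp from the start of Ptma, which encodes prothymosin alpha. WT_CTCF replicate 2 had 1 peak of 3214 bp across it with a score of 2283. WT_CTCF replicate 1 had 3 peaks there, with scores of 45, 2319 and 1450. The MUT_CTCF peaks scored 713 and 638 in replicate 1 and 766 and 565 in replicate 2. The MUT_CTCF summits fell at the first and last of 3 motif matches.

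The other 4 of the 6 widest regions differed in arrangement. A region of 2787 bp near Adamts2, a procollagen-processing protease gene, had no motif match and hardly lower MUT_CTCF scores, with top scores of 968 and 1074 in WT_CTCF replicates 1 and 2 and 987 and 852 in MUT_CTCF replicates 1 and 2. A region of 2656 bp near Msl1, a gene of a histone acetylation complex, had 3 peaks in each MUT_CTCF library, with top scores of 1919, 1781, 1022 and 818. A region of 2599 bp in Mto1, which encodes a mitochondrial tRNA-modifying enzyme, had 3 matches and low top scores of 408, 288, 111 and 66. In a region of 2760 bp at the promoter of Gm20417 on chromosome 19, MUT_CTCF peaks covered 539 and 514 bp at the first of 2 matches, with scores of 212 in both libraries, and WT_CTCF peaks covered 2541 and 2731 bp. Low scores and great width thus occurred together in some regions, as with Mto1. The 2 other regions with 4 distinct summits were also weak. The one within Mid1 on X, a ubiquitin ligase gene, lay before an internal transcript start. It had top scores of 115, 157, 91 and 50 and no match. The one near Bcar1, an adaptor protein gene, had 90, 90, 39 and 30 and 2 matches.

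In a region of 2554 bp on chromosome 15, 38253 bp from the start of the collagen gene Col14a1, 3 of 4 motif matches had windows like the consensus. Each MUT_CTCF library had peaks at the first and second match, with scores of 331 and 200 in replicate 1 and 263 and 187 in replicate 2. WT_CTCF replicate 2 also had separate peaks, with scores of 847 and 776. WT_CTCF replicate 1 bridged these sites with 1 peak of 2156 bp and a score of 671. A region of 2086 bp in 4933432B09Rik also held 4 matches and was split in MUT_CTCF. Its single WT_CTCF peaks scored 1710 and 1451, and its MUT_CTCF peaks scored 488 and 970 in replicate 1 and 656 and 1039 in replicate 2. The region with the most matches, 5 in 1601 bp, lay on chromosome 5 near 2900026A02Rik. Its top scores were 1017 and 1041 in WT_CTCF and 624 and 609 in MUT_CTCF, and its top summit stood nearer another match in each genotype. The WT_CTCF summits lay 1 bp from the match at position 317 of the region, and the MUT_CTCF summits lay 27 and 60 bp from the match at position 756.

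Of the 5 wide regions with the highest mean top score, 4 had a single distinct summit. The Fam129b region, the highest, scored 19592 and 20526 in WT_CTCF replicates 1 and 2 and 12629 and 12557 in MUT_CTCF replicates 1 and 2. Its peaks were 913, 1005, 821 and 840 bp wide, and the summits stood between the 2 facing matches printed above, 16 to 20 bp from each. A region near Slc46a1, the gene of a folate transporter, scored 19245, 20325, 10112 and 9236 with 1 match 16 to 18 bp from all summits. The Gdf15 region, at the gene of a stress-induced cytokine, scored 18853, 20934, 7418 and 6706 and had the highest mean count of all wide regions, 5549. At the shared start of Trp53, the gene of the p53 tumour suppressor, and Wrap53, which encodes a telomerase-associated protein, top scores were 13857, 14956, 11205 and 11154, and WT_CTCF replicate 1 had a further weak peak with a score of 134 at a second summit. The region over the start of Acbd4, an acyl-CoA-binding protein gene, scored 16447, 18357, 9012 and 8905. These 5 strong sites thus differed in how much lower MUT_CTCF was, from a ratio of mean scores of 0.355 at Gdf15 to 0.776 at Trp53.

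At the top of that ratio, 1 of the 1176 wide regions called in all 4 libraries had a higher mean score in MUT_CTCF. So did 208 of the 29136 narrower regions called in all 4. The wide one lay in Gm11732 on chromosome 11. It scored 509 and 717 in WT_CTCF replicates 1 and 2 and 705 and 594 in MUT_CTCF replicates 1 and 2, and its groups overlapped. Regions in Amz1, a metalloprotease gene, Akap1, a gene for an anchor of protein kinase A at mitochondria, and Ksr2, a scaffold gene of the Ras pathway, had ratios of 0.985, 0.979 and 0.974. The Ksr2 region, which held 4 matches, scored 3568, 3435, 3551 and 3273, and its groups overlapped. At the bottom was a region within Psmb3, which encodes a proteasome subunit, with 362 and 637 in WT_CTCF and 42 and 41 in MUT_CTCF, a ratio of 0.0831. It lay 6566 bp from the start of the gene and counted as promoter through an internal transcript start. The region over the start of Myo1d, an unconventional myosin gene, scored 921 and 819 against 101 and 66 and had no match. The region over the start of Fbxo47, an F-box protein gene, scored 986 and 963 against 123 and 78. A region near Prss54 on chromosome 8, with 1 match whose window was like the consensus, scored 955 and 974 against 145 and 63. In these 4 regions both MUT_CTCF scores were below both WT_CTCF scores. The same was true of 98.8% of wide regions and 96.2% of all regions called in all 4 libraries. The 4 regions were picked for this ratio, so no test is given.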

How the data were processed

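The authors trimmed reads with Trim Galore 0.4.4, aligned them with Bowtie2 2.3.4.1 to mm9, removed multiply aligned and duplicate reads, scaled coverage by spike-in factors and called peaks per library with MACS2 2.1.1.20160309. The deposited peak lists give a score per peak, whose definition, cutoff and use of input were not stated, and a summit offset in bp. The authors' deposited table gives a mean scaled count signal per joined region. It also holds their DESeq2 1.38.0 comparison (log2 fold changes, standard errors, Wald scores, p-values), which was not used. The 57662 regions equalled the merge of the 4 lists. The number of per-sample columns left unused was 0. Read depth is unknown, so no counting interval is given.

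Motifs were searched in the NCBIM37 (mm9) reference and genes taken from GENCODE vM1. A start counted with its 3000 bp upstream as promoter. Groups came from sample titles; the study describes the replicates as biological. Genotypes were compared on 1 value per library by exact permutation, two-sided. Named regions were the 6 widest, the 6 with most summits, the 5 highest by mean top score, the 4 highest and 4 lowest by MUT_CTCF to WT_CTCF ratio, the 3 with most motif matches, and the widest per gene list. Members, gene lists and the consensus limit were chosen with earlier results of these data known. The log2 top score of replicate 1 minus replicate 2 in WT_CTCF had r = -0.0015 with that in MUT_CTCF over wide regions. This r leaves out shifts of a whole library, so it cannot show whether same-numbered replicates deviated together. Scripts were tested on simulated data. Work was done in Python 3.11.15 with pysam 0.24.0, scipy 1.17.1, pandas 2.3.3, numpy 2.4.6 and matplotlib 3.10.9.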

Additional observations from a re-analysis of the deposited data

How the results depend on the processing

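Over 10 results and 78 alternatives, 1 turned a direction and 21 moved a value that has no test. The other 56 were counted as kept. For values compared between genotypes this means the same direction, and for values without a test that they stayed near the reported one. No exact permutation p here could fall below 0.333, so no alternative could cross the threshold, and staying on its side shows nothing. The replicate block and the joining of peaks, given below, could not change a difference of group means. The size was not always kept. The difference in split regions ran from 5.57 to 36.9 points (14.6 as reported). The difference in regions holding a peak ran from -189 to -7.5 (-49.5 as reported). The larger score step in MUT_CTCF between wide and narrower regions turned to -0.0045 log2 units with peaks scoring 250 or more, and by mean in place of top score it gave 0.012 (exact permutation p = 0.667). Distinct summits per region (1.52) became 1.24 at a width limit of 800 bp, 1.98 at 1500 bp, 1.23 with peaks scoring 250 or more and 1.56 with summits joined at 50 bp. The share with several summits (49.2%) became 23.1%, 86.1% and 22.4% under the first 3 of these. Leaving out each replicate gave 1.42 to 1.47 summits and 41.0% to 44.9%. The share with a motif match (86.0%) became 81.4% at 800 bp, 88.1% at 1500 bp, 27.2% without mismatch and 78.6% within 150 bp of a summit. The promoter share (22.8%) became 18.0% at 1500 bp and 18.1% for 1000 bp on either side of a start. The limit gave 3328 regions at 800 bp and 194 at 1500 bp. Of regions rebuilt to at least 1000 bp without WT_CTCF replicate 1, 1036 held a peak of the remaining WT_CTCF library, and 795 did so without WT_CTCF replicate 2. Joining peaks up to 100 bp apart changed nothing, since the smallest gap was 151 bp. The replicate block left the differences as they were, 14.6 points for split regions and -632 for the median top score (exact sign-flip p = 0.5, the smallest 2 pairs allow), and the replicate numbers were not read as pairs.

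Scores and widths depend on depth and on caller settings that are unknown here, and the extent of wide regions was set mostly by WT_CTCF peaks. No summit was recorded for weaker sites under a peak.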
